A study of Mus musculus with 4 samples.

Results

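The wells described here hold sorted tumour stromal cells with transcripts of Pdgfra together with P2ry1 or Kcnn3, the genes by which PDGFRA-positive interstitial cells of gut muscle are known. They were chosen from the measured values. A member held at least 2 transcripts of Kcnn3 and P2ry1 in sum, at least 2 transcripts of Pdgfra and fewer than 5 Kit transcripts per 10000. Of 740 wells kept out of 1536, 75 met this rule, with 1 in tumour 1, 21 in tumour 2, 29 in tumour 3 and 24 in tumour 4. These were 2.33, 8.40, 11.9 and 11.8% of the kept wells of the 4 tumours, and the exact (Clopper-Pearson) 95% intervals ran from 0.0589 to 12.3%, from 5.27 to 12.6%, from 8.14 to 16.7% and from 7.69 to 17%. The mean share was 8.61 ± 4.49% (SD, n = 4 tumours), and 10.7 ± 1.99% over tumours 2 to 4 (SD, n = 3). A share of sorted wells depends on the sorting gate, which the labels do not define.

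The plates hold single cells sorted as cancer-associated fibroblasts, the stromal fibroblasts of a tumour, from APTKA tumours that had been left untreated in the colon; the hosts were female C57BL6J mice. Each of the 4 tumours gave 1 plate of 384 wells, processed by SORT-seq with CEL-Seq2 libraries, in which molecular barcodes are counted. All plates belong to a single group, so the comparisons run between kinds of wells inside the same tumour. Whether each tumour came from its own mouse is not stated in the labels, so p-values measure the spread between these tumours only. The members were set against 581 other fibroblasts, which are the other kept wells with at least 30 transcripts of Dcn and Col1a1 together per 10000. They were also set against 57 telocyte-type wells, which held at least 5 transcripts of Bmp5, Bmp7 and Sox6 together per 10000, and against 17 Kit-high wells, which held at least 5 Kit transcripts per 10000, with at least 2 transcripts in either case. Of the other fibroblasts, 54 are telocyte-type wells and 7 are Kit-high wells as well. Levels are given as transcripts per 10000 transcripts of the summed wells of a kind in a tumour.

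Tumour 1 stood apart from the others. Spike-in RNA made up 44.0% of its plate, against 5.54 to 8.59% on the other plates, and only 43 of its wells were kept, against 204 to 250. Its single member was also the deepest, with 53796 transcripts, while the median member of tumours 2, 3 and 4 held 6851, 10859 and 9137 transcripts and the median other fibroblast of these tumours 9340, 8669 and 11375. That well held P2ry1 at 1.67 per 10000 and no Kcnn3. It carried 60.5 Acta2 transcripts per 10000, 57.7 over the 6 markers of lamina propria fibroblasts, 0.186 of Gucy1a3 and 0.372 of Ces1d, and it held no Meis2. In other fibroblasts of tumour 1 those 6 lamina propria markers summed to 24.8 per 10000. The 11 smooth muscle markers, Acta2 among them, summed to 65.4 in this well and to 108 in those fibroblasts. They therefore did not set the well apart on its plate. Ces1d, Gucy1a3 and Art4 together summed to 0.558 in this well and to 1.31 in those fibroblasts. This well met the rule, but its low Ces1d and Gucy1a3 went against the label. Each test needed at least 5 wells in every sum, which tumour 1 with its single member did not meet. Against other fibroblasts the tests therefore use the 74 members and 548 other fibroblasts of tumours 2 to 4. On these plates 268 well positions were kept on more than 1 plate, and 1 position held a member on more than 1 plate.

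In the muscle of the gut, PDGFRA-positive interstitial cells lie beside nerve varicosities and are coupled to smooth muscle. They are known for answering purines released by inhibitory motor neurons: the P2Y1 receptor signals through Gq and phospholipase C, calcium leaves the endoplasmic reticulum through the inositol trisphosphate receptor, and the small-conductance potassium channel SK3, the product of Kcnn3, opens and hyperpolarises the tissue. Interstitial cells of Cajal, the KIT-positive pacemaker cells of the same muscle, use the chloride channel ANO1 instead and respond to nitric oxide through soluble guanylyl cyclase.

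P2ry1 and Kcnn3 lie on chromosome 3 of the mouse (GRCm38, positions in GENCODE vM21), at 61002795 to 61008982 and at 89520164 to 89675132 on the plus strand. Gucy1a3 and Gucy1b3, named Gucy1a1 and Gucy1b1 in the annotation, are neighbours on the same chromosome, at 82092427 to 82145789 and at 82032006 to 82074689 on the minus strand. Pdgfra lies on chromosome 5 at 75152292 to 75198215. The 250 bases before the start of these receptor, channel and cyclase genes are shown because their transcripts met in the same wells. Sequences are from RefSeq (GRCm38.p6), written from 5′ to 3′ in lower case. The windows follow RefSeq starts, which differ slightly from the annotated ends above, and the first of 2 starts is used for Gucy1a3. Capitals mark matches, on either strand, to the MEIS core TGACAG, the forkhead motif GTAAACA and the E-box CAGCTG.
P2ry1 promoter, chr3:61002535-61002784, plus strand: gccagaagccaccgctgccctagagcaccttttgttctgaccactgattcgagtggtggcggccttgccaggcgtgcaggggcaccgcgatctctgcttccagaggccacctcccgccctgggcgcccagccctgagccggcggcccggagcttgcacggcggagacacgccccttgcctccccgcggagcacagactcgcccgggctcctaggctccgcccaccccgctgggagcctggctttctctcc
Kcnn3 promoter, chr3:89519914-89520163, plus strand: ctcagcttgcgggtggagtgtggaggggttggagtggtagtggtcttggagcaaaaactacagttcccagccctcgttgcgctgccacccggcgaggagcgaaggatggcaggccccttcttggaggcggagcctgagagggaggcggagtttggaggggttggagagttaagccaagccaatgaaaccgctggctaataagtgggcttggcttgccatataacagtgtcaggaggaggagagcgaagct
Gucy1a3 promoter, chr3:82145651-82145900, minus strand: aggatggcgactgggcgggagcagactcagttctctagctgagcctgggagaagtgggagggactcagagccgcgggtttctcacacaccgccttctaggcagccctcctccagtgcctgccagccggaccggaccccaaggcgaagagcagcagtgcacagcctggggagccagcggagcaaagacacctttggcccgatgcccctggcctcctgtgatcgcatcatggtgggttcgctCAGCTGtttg
Gucy1b3 promoter, chr3:82074712-82074961, minus strand: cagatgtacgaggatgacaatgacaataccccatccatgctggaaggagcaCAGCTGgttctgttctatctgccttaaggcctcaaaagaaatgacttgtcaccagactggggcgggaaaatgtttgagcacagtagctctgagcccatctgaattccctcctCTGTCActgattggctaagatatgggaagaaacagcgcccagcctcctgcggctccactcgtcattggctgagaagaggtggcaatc
The windows before P2ry1 and Kcnn3 held none of the 3 motifs. The window before Gucy1a3 held an E-box, and that before Gucy1b3 an E-box and a MEIS core. Of 32851 windows of this length, 15.9% held the MEIS core, 3.17% the forkhead motif and 13% the E-box, so the matches are a description of these letters only.

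The genes of the rule describe how far the members stood from the other wells, and they carry no test. P2ry1 stood at 3.41, 4.25 and 3.75 per 10000 in members of tumours 2, 3 and 4, against 0.0347, 0.157 and 0.0571 in other fibroblasts. Kcnn3 stood at 4.33, 3.29 and 2.67 per 10000 in members, against 0.0174, 0.0602 and 0.0264 in other fibroblasts. Pdgfra, the receptor for platelet-derived growth factor, stood at 13.2, 14.1 and 15.2 per 10000 in members and was well present in other fibroblasts, at 3.84, 5.88 and 5.72. Of the 75 members, 53 held both P2ry1 and Kcnn3, 15 held P2ry1 alone and 7 Kcnn3 alone. The 2 genes together gave 2 to 28 transcripts per member, with a median of 6. Kit was found in 5 of 75 members, and no well that met the other conditions was left out by the Kit limit.

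The other genes of the label were chosen with these data known and are likewise given without a test. Ces1d, which encodes a carboxylesterase, stood at 4.06, 6.94 and 6.65 per 10000 in members of tumours 2 to 4, against 0.260, 0.361 and 0.193 in other fibroblasts. Gucy1a3, a subunit of the nitric oxide receptor soluble guanylyl cyclase, stood at 4.38, 7.25 and 5.92 per 10000 in members, against 0.243, 0.361 and 0.281 in other fibroblasts. It was not particular to members, with a mean over these tumours of 5.85 in members and 3.22 in Kit-high wells. Ces1d has close paralogues, and how the authors' counting divided reads between them is not stated in the labels. Art4, an ADP-ribosyltransferase gene, was sparse, with 17 transcripts in members and 2 in other fibroblasts of these tumours. At least 1 transcript of Ces1d, Gucy1a3 or Art4 was found in all but 9 of the 75 members, and in 148 of 581 other fibroblasts.

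The threshold cut through a range. The 15 members with exactly 2 transcripts of Kcnn3 and P2ry1 held Ces1d in 7 wells and Gucy1a3 in 7, at 1.80 and 1.18 per 10000 over their summed wells. Just outside were 66 wells with 1 such transcript and at least 2 of Pdgfra, which held Ces1d in 10 wells and Gucy1a3 in 15, at 0.344 and 0.287 per 10000. The 60 members with 3 or more stood at 7.0 for Ces1d and 7.14 for Gucy1a3.

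**Figure D1:**
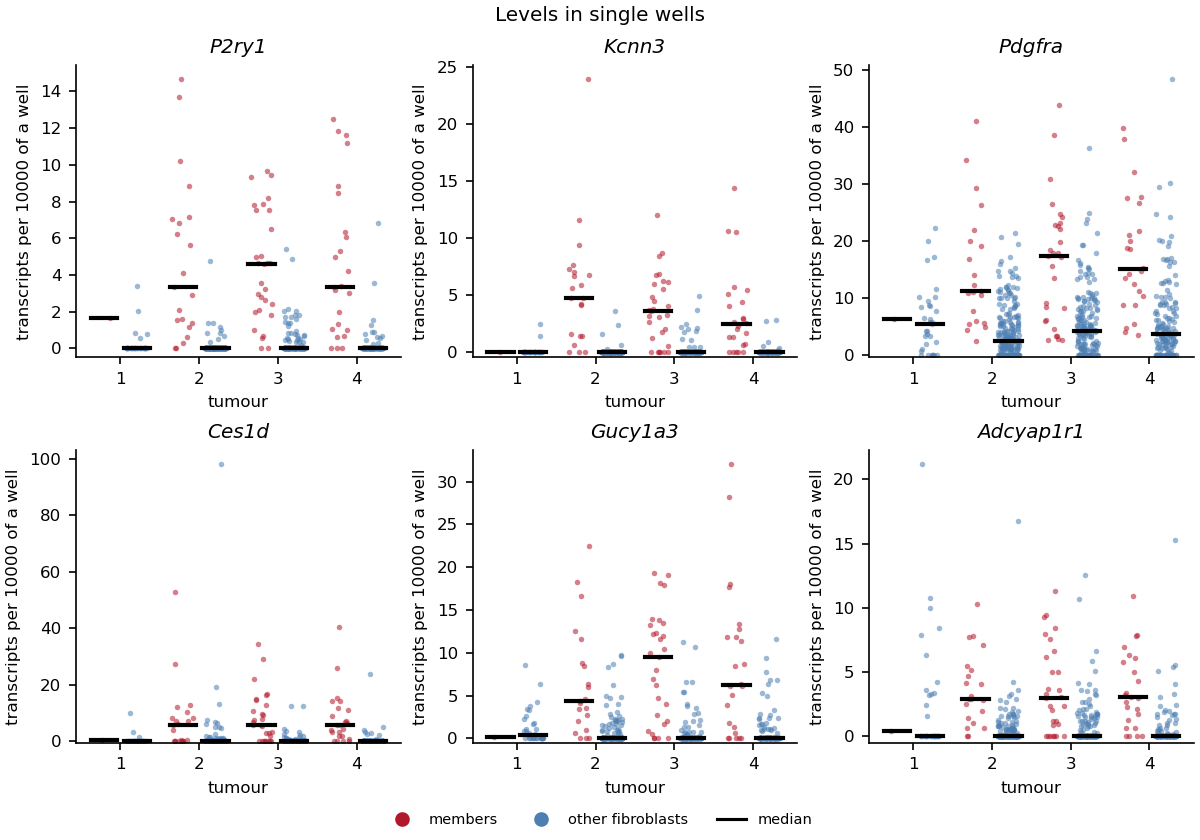
Each point is a well, with its transcripts per 10000 on the vertical axis; members (red) stand left of other fibroblasts (blue) in each tumour, and black bars are medians. The median member of tumours 2, 3 and 4 held Gucy1a3 at 4.38, 9.47 and 6.22 per 10000 and Adcyap1r1 at 2.94, 2.96 and 3.02, while the median other fibroblast of these tumours held neither.

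Members were next compared with other fibroblasts across all genes, with edgeR's quasi-likelihood test on the summed transcripts and the tumour as a block; a gene passed at a Benjamini-Hochberg adjusted p under 0.05. Syn2, Prkar2b, Mgp, Jam2 and Cacna1g were among the largest rises, and the matrix-degrading enzymes Mmp13 and Mmp10 and the secreted factors Il11 and Inhba were among the largest falls. Of 8950 genes tested, 342 rose in members (3.82%) and 343 fell (3.83%), 7.65% in all. Without tumour 3 the numbers were 223 and 272, and without tumour 4 they were 217 and 231; when sums of 1 well were let in, which adds the single member of tumour 1, 17 rose and 20 fell of 4656 tested. DESeq2 called 229 and 180. Described next are the 15 largest rises and 15 largest falls among genes with a mean of at least 1 per 10000 in the higher kind. They also passed the test and moved the same way in every tumour. Rarer genes with larger changes are left out of this set. All of the set kept their call without tumour 2, without tumour 3 and without tumour 4.

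Syn2, which encodes a synaptic vesicle protein of neurons, led the rises of this set. It stood at 0.974, 1.56 and 0.735 per 10000 in members of tumours 2, 3 and 4, against 0.0104, 0.0324 and 0.0220 in other fibroblasts (log2 fold change 5.58 ± 0.38 SE, adjusted p = 3.95e-06). It was found in 34 of 74 members and in 12 of 548 other fibroblasts, so it marked many members but not most. Prkar2b, a regulatory subunit of protein kinase A, stood at 1.95, 1.85 and 1.82 per 10000 in members and at 0.174, 0.153 and 0.167 in other fibroblasts (log2 fold change 3.46 ± 0.21 SE, adjusted p = 2.62e-06). Mgp, which encodes matrix Gla protein, an inhibitor of calcification, was found in all 74 members, at 171, 149 and 142 per 10000, against 10.2, 17.6 and 27.0 in other fibroblasts (log2 fold change 3.13 ± 0.25 SE, adjusted p = 1.02e-05). The summed levels of the 2 kinds did not overlap across these tumours, but the genes were picked for their large changes. Single wells were less clearly apart: Mgp was found in 458 of 548 other fibroblasts and Prkar2b in 72.

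Other rises of this set were Jam2, a junctional adhesion molecule (log2 fold change 3.49), the calcium sensor gene Ncald (2.99) and the calcium channel gene Cacna1g (3.19). The phospholipase gene Plcb1 (3.16), the guidance gene Sema5a (3.09) and Fibin (3.31) belonged to it too. Jam2 was found in 64 of 74 members and Fibin in 61. Mamdc2, Plekha6, Tmem200a, Vwa1 and Mn1 rose by log2 fold changes of 3.56, 3.36, 3.30, 3.02 and 2.95. Thbs4, a thrombospondin, passed with a log2 fold change of 2.90 but rested on few wells. It was found in 11 of 74 members, and in tumours 2, 3 and 4 a single well gave 80.1, 98.0 and 72.3% of its transcripts. Without those wells the members stood at 0.520, 0.0543 and 3.11 per 10000, against 1.11, 0.320 and 0.483 in other fibroblasts.

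Secreted enzymes and cytokines were among the largest falls. Mmp13, a collagenase, stood at 0.217, 0.522 and 0.426 per 10000 in members of tumours 2, 3 and 4, against 11.2, 22.0 and 18.2 in other fibroblasts (log2 fold change -5.49 ± 0.20 SE, adjusted p = 3.76e-08). Mmp10, a stromelysin, fell by 5.97 on the log2 scale. Over tumours 2 to 4, telocyte-type wells held Mmp10 at a mean of 44.8 and Mmp13 at 71.0 per 10000. Most of these wells count among the other fibroblasts, whose means were 8.85 and 17.1. Their weight in these falls was not tested. The cytokine gene Il11 fell by 4.41, and Inhba, the subunit of activin A, by 4.42. Il1rl1, the receptor for interleukin 33, fell by 4.01, the chemokine gene Cxcl10 by 3.65, the activin antagonist Fst by 2.46 and the osteopontin gene Spp1 by 2.97. Angptl7, Stc1, Ctla2a, Col7a1, Piezo2 and Sfrp4 fell too, with log2 fold changes of -5.29, -4.58, -4.20, -3.88, -3.72 and -2.80. Against other fibroblasts of like depth Spp1 was lost (log2 fold change -1.36, adjusted p = 0.0528). Of the members' transcripts, 1 well gave 63.8% for Sfrp4, 61.0% for Spp1 and 52.2% for Fst. Beta-s, a haemoglobin gene of red cells, fell by 2.45; 13 of the 581 other fibroblasts and 0 of the 75 members held at least 50 of its transcripts per 10000, and the call was lost without those 13 wells, with other fibroblasts of like depth and with thinned wells.

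**Figure D2:**
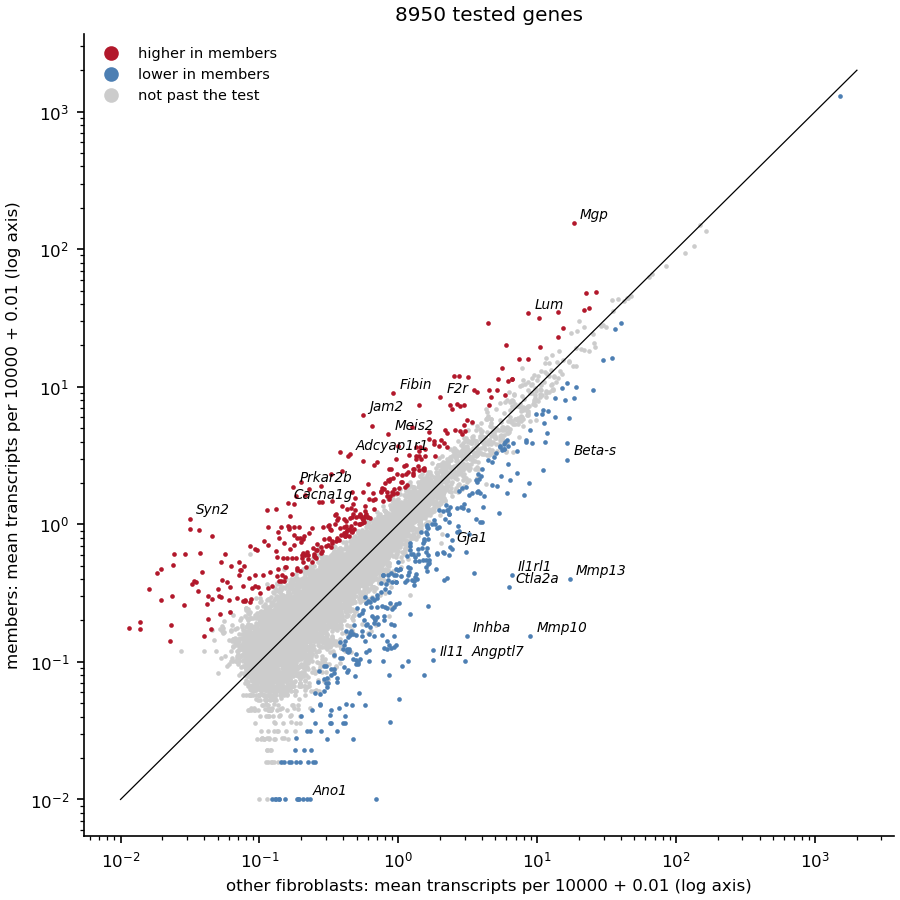
Mean transcripts per 10000 over tumours 2 to 4 in members (vertical) and other fibroblasts (horizontal), on log axes with 0.01 added, for all 8950 tested genes; the line marks equal levels. The 342 genes that rose are red and the 343 that fell are blue, with Syn2, Prkar2b and Mgp far above the line and Mmp10 and Mmp13 far below it.

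Of 12 tested genes for purine receptors and nucleotide handling, P2ry1 left aside, 2 rose and 0 fell. Over all tested genes 3.82% rose and 3.83% fell. The median log2 fold change of the 12 genes was -0.41, against -0.03 over all tested genes. Adora1, the A1 adenosine receptor, stood at 0.217, 0.887 and 0.387 per 10000 in members and at 0, 0.0370 and 0.00439 in other fibroblasts (log2 fold change 5.21 ± 0.62 SE, adjusted p = 0.000247). It was found in 20 of 74 members and in 4 of 548 other fibroblasts. Enpp1, which cleaves extracellular ATP, rose by a log2 fold change of 1.91, a call lost with thinned wells (1.34, adjusted p = 0.138). P2rx4 and Entpd2, an ATP-gated channel and an ATP-degrading enzyme, stood at 0.24 and 0.93 per 10000 in members and at 0.43 and 1.39 in other fibroblasts and did not pass.

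Genes downstream of Gq rose at several steps. Of 29 tested genes of Gq signalling and calcium release, 9 rose and 1 fell, and all 10 kept their call without any single tumour; the median log2 fold change of the list was 0.21. Plcb1, the phospholipase that acts on Gq signals, stood at 1.79, 1.83 and 1.20 per 10000 in members, against 0.108, 0.227 and 0.185 in other fibroblasts (adjusted p = 1.80e-05). Its relative Plcb4 stood at 0.487, 0.495 and 0.580 in members and at 0.0556, 0.0695 and 0.0571 in other fibroblasts (log2 fold change 3.03 ± 0.40 SE, adjusted p = 0.000544). Gna14, a Gq-family alpha subunit, rose by a log2 fold change of 4.37 and was found in 27 of 74 members, while the widely expressed Gnaq and Gna11 did not pass. Itpr1, the calcium release channel opened by inositol trisphosphate, stood at 1.30, 1.67 and 1.35 per 10000 in members and at 0.201, 0.264 and 0.308 in other fibroblasts (log2 fold change 2.44 ± 0.23 SE, adjusted p = 3.95e-05).

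Calcium pumps and entry channels belonged to the same rise. Atp2a3 and Atp2a2, pumps that refill the endoplasmic reticulum, rose by log2 fold changes of 4.45 and 1.26, and the plasma membrane pump Atp2b4 rose by 1.24. Cacna1g, a low-threshold T-type calcium channel, stood at 1.52, 1.30 and 1.43 per 10000 in members, against 0.0972, 0.181 and 0.171 in other fibroblasts (adjusted p = 1.55e-05). Cacna1d, an L-type channel, rose by 3.11, while Cacna1c, the L-type channel of smooth muscle, did not pass. Rgs5, a brake on G protein signals that pericytes express strongly, had 3 transcripts in members and 381 in other fibroblasts. This was a 14.4-fold lower level (95% counting interval 4.87 to 69.9). The gene was rare in both kinds, found in 3 of 74 members and 44 of 548 other fibroblasts. In other fibroblasts 1 well gave 17.7% of its transcripts.

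Of 9 tested potassium and other ion channel genes, 4 rose and 1 fell, with a median log2 fold change of 1.0. Kcnma1, the large-conductance calcium-activated potassium channel, stood at 1.41, 1.30 and 1.51 per 10000 in members and at 0.406, 0.435 and 0.545 in other fibroblasts (log2 fold change 1.56 ± 0.20 SE, adjusted p = 0.000515). Abcc9, the SUR2 subunit of ATP-sensitive potassium channels, stood at 2.38, 2.27 and 2.28 in members and at 0.969, 1.12 and 1.27 in other fibroblasts (log2 fold change 1.0 ± 0.18 SE, adjusted p = 0.00474); its pore partner Kcnj8 did not pass. Kcnk2, a background potassium channel, passed with a log2 fold change of 2.21 but was lost without tumour 2, 3 or 4 (adjusted p = 0.139, 0.348 and 0.124). Ano1, the chloride channel of pacemaker cells, had 0 transcripts in the members and 147 in the other fibroblasts of tumours 2 to 4, so it was at least 5.54-fold lower against a floor of 3 transcripts over the group.

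The nitric oxide pathway was represented by both subunits of its receptor. Gucy1b3, the beta subunit that pairs with Gucy1a3, stood at 1.57, 2.92 and 2.44 per 10000 in members, against 0.222, 0.421 and 0.308 in other fibroblasts (log2 fold change 2.82 ± 0.20 SE, adjusted p = 4.77e-06). Both subunits were found together in 50 of 75 members and in 46 of 581 other fibroblasts. Gucy1a3 is a gene of the label and Gucy1b3 rose between these same wells, so this count is a description only. Of 12 tested genes of nitric oxide, cyclic GMP and natriuretic peptide signalling, 4 rose and 0 fell, with a median log2 fold change of 0.52. Pde1a, a calcium-activated phosphodiesterase, rose by 1.66. The cyclic GMP phosphodiesterases Pde5a and Pde9a rose by 1.35 and 1.57, but Pde5a was lost without tumour 2 or tumour 4 (adjusted p = 0.0679 and 0.0717), and Pde9a likewise (adjusted p = 0.111 and 0.162). Prkg1, the cyclic GMP-dependent kinase of smooth muscle, did not pass.

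Receptors for peptides, amines and proteases differed gene by gene. Of 21 tested, 6 rose and 3 fell, and the median log2 fold change was 0.53. Adcyap1r1, the PAC1 receptor for the neuropeptide PACAP, stood at 2.54, 3.99 and 3.13 per 10000 in members, against 0.424, 0.519 and 0.365 in other fibroblasts (log2 fold change 2.84 ± 0.19 SE, adjusted p = 3.95e-06), and was found in 61 of 74 members. F2r, the thrombin receptor PAR1, stood at 6.39, 9.41 and 9.44 in members and at 1.65, 2.12 and 2.22 in other fibroblasts (log2 fold change 2.02 ± 0.16 SE, adjusted p = 1.02e-05). The summed levels of the 2 kinds did not overlap for either gene, but both are named because they passed the test. Of 548 other fibroblasts, 143 held Adcyap1r1 and 341 held F2r.

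Ramp1, the accessory protein of the CGRP receptor, rose by a log2 fold change of 2.88 and Adrb1, the beta-1 adrenoceptor, by 2.98. Calcrl, the receptor that RAMP1 joins, and the lysophosphatidic acid receptor Lpar1 rose by 1.17 and 0.68, but Calcrl was lost without tumour 2 or 3 (adjusted p = 0.126 and 0.0768) and Lpar1 without tumour 2 or 4 (adjusted p = 0.0771 and 0.108). Both Calcrl and Ramp1 were found in 21 of 75 members and in 10 of 581 other fibroblasts. The 2 genes are named because they passed between these same wells, so this count is a description only. Among falls, the endothelin receptor Ednrb had 3 transcripts in members and 289 in other fibroblasts, a 10.9-fold lower level (95% counting interval 3.69 to 53.1). It was found in 3 of 74 members and 53 of 548 other fibroblasts, where 1 well gave 16.7% of its transcripts. The neuropeptide Y receptor Npy1r fell by 2.13 on the log2 scale but was lost without tumour 4 (adjusted p = 0.108), and the angiotensin receptor Agtr1a, with 1 transcript in members against 111, was lost without tumour 2, 3 or 4 (adjusted p = 0.0876, 0.104 and 0.129). Of 12 cyclic AMP genes tested, Prkar2b alone rose and 0 fell, with a median of 0.02.

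Kitl, the ligand of the KIT receptor of pacemaker cells, stood at 2.82, 3.34 and 3.17 per 10000 in members, against 0.368, 0.389 and 0.510 in other fibroblasts (log2 fold change 2.84 ± 0.19 SE, adjusted p = 3.95e-06). It was found in 47 of 74 members and in 136 of 548 other fibroblasts. Of the 5 tested genes for PDGF receptors, their ligands and KIT ligand, Kitl and Pdgfrl rose and Pdgfrb and Pdgfa fell, with a median log2 fold change of 0.76. Pdgfrb, the beta receptor of mural cells, stood at 0.866, 1.07 and 0.890 per 10000 in members and at 1.47, 2.21 and 2.21 in other fibroblasts (log2 fold change -1.10 ± 0.20 SE, adjusted p = 0.00513), and the ligand gene Pdgfa fell by 2.19. Pdgfrl was lost without tumour 3 (adjusted p = 0.205).

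The gap junction gene Gja1, which encodes connexin 43, fell. It stood at 0.920, 0.652 and 0.464 per 10000 in members, against 1.79, 3.05 and 2.19 in other fibroblasts (log2 fold change -1.89 ± 0.26 SE, adjusted p = 0.000717), and was found in 17 of 74 members and 319 of 548 other fibroblasts. Of 4 tested genes of electrical coupling it was the only one to pass; Gjc1, which encodes connexin 45, stood at 0.33 per 10000 in members and 0.24 in other fibroblasts. The median of these 4 genes was -0.06.

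**Figure D3:**
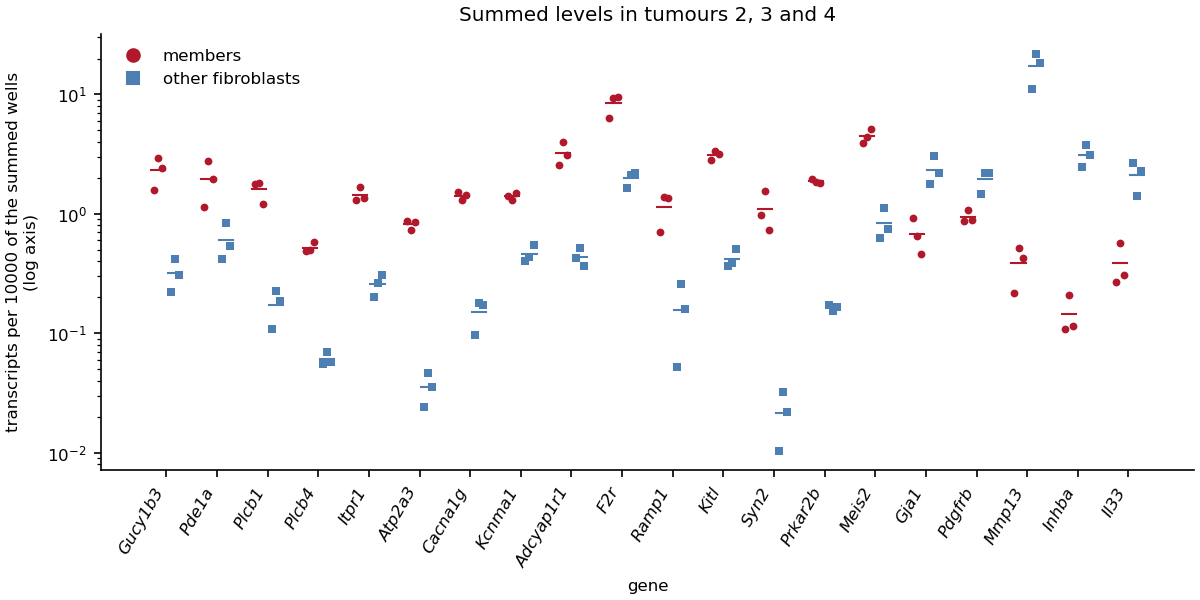
Summed transcripts per 10000 (log axis) in tumours 2, 3 and 4 for members (red circles) and other fibroblasts (blue squares), with bars at the means of 3 tumours. Members stand above other fibroblasts in every tumour from Gucy1b3 to Meis2 and below them from Gja1 to Il33.

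**Figure D4:**
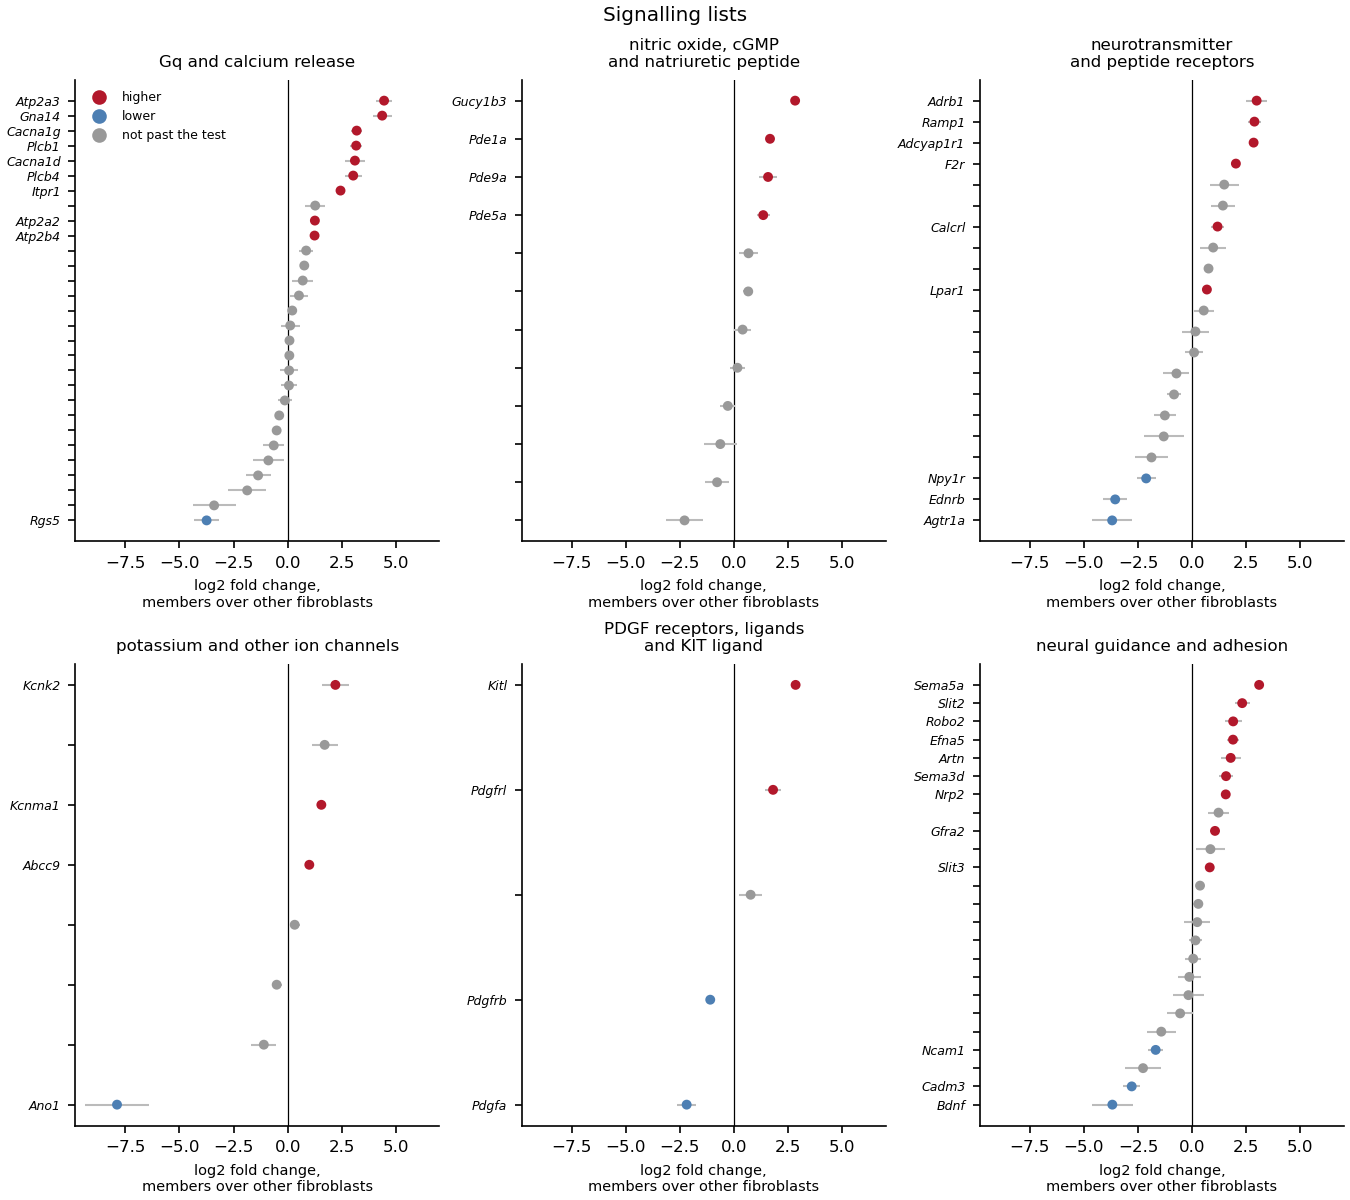
Log2 fold changes of members over other fibroblasts, with standard errors, for tested genes of 6 signalling lists; red genes rose, blue genes fell, and grey genes, drawn without names, did not pass. A few genes of these lists are not drawn. In the Gq and calcium list 9 genes rose and 1 fell, and in the nitric oxide list 4 rose and 0 fell.

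Genes of neural guidance and adhesion went both ways. Of 25 tested, 10 rose, of which 5 kept their call without any single tumour, and 3 fell, with a median log2 fold change of 0.36. The semaphorin Sema5a (3.09), the repellent Slit2 (2.31), the ephrin Efna5 (1.89) and the semaphorin receptor Nrp2 (1.55) rose and kept their call without any single tumour. Robo2, Sema3d, Slit3, Artn and Gfra2 passed with log2 fold changes between 0.81 and 1.89 and were each lost without at least 1 tumour, for example Robo2 without tumour 4 (adjusted p = 0.143), Sema3d without tumour 3 (0.0643), Slit3 without tumour 3 or 4 (0.251 and 0.0728), Gfra2 without tumour 2 or 4 (0.0654 and 0.0950) and Artn without tumour 2, 3 or 4 (0.0973, 0.135 and 0.168). The adhesion genes Ncam1 and Cadm3 fell by 1.69 and 2.79; the neurotrophin Bdnf, with 1 transcript in members, was lost without tumour 2, 3 or 4 (adjusted p = 0.0887, 0.0673 and 0.185).

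Matrix genes went both ways. Of 16 collagen genes 4 rose and 5 fell (median log2 fold change -0.07), and of 23 basement membrane genes 3 rose and 4 fell (median 0.08). Col6a3, a chain of the microfibrillar collagen VI, stood at 26.0, 37.1 and 32.3 per 10000 in members, against 7.59, 11.8 and 11.5 in other fibroblasts (log2 fold change 1.59 ± 0.13 SE, adjusted p = 1.64e-05). The laminin chains Lama1 and Lama2 rose by 1.56 and 1.15, while Lama5 fell by 2.61, Col18a1 by 1.97 and the collagen receptor Itga1 by 2.97. Among the markers of fibroblasts in general, the small proteoglycan Lum stood at 33.2, 35.6 and 34.2 per 10000 in members and at 6.33, 8.28 and 11.3 in other fibroblasts (log2 fold change 1.98 ± 0.16 SE, adjusted p = 1.55e-05). Dpt rose by 1.28, and fibronectin (Fn1) and podoplanin (Pdpn) fell by 1.55 and 0.85.

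Secreted WNT, BMP and FGF factors and their inhibitors fell more often than they rose. Of 32 tested, 5 rose and 11 fell, with a median log2 fold change of -1.17. Grem1, which binds BMPs, fell by 2.19, the growth factor Fgf7 by 1.48 and Sfrp2 by 1.69. Nrg1, a ligand of ERBB receptors, had 3 transcripts in members and 281 in other fibroblasts. This was a 10.6-fold lower level (95% counting interval 3.59 to 51.6). Telocyte-type wells, most of which count among the other fibroblasts, held 139 Nrg1 transcripts in tumours 2 to 4. Their weight in this fall was not tested. Only the WNT inhibitor Sfrp1 rose and kept its call without any single tumour, at 44.8, 49.9 and 49.9 per 10000 in members, against 27.1, 15.2 and 24.6 in other fibroblasts (log2 fold change 1.10 ± 0.18 SE, adjusted p = 0.00242). The other 4 rises, Rspo3, Chrd, Bmp6 and Frzb, were each lost without tumour 3 (adjusted p = 0.0796, 0.0882, 0.0932 and 0.0575), Chrd also without tumour 4 (0.103) and Bmp6 also without tumour 2 or 4 (0.158 and 0.156). Of the falls, Wnt5a, Wnt4, Bmp7, Dkk2 and Fgf18 did not keep their call: Wnt5a was lost without tumour 3 or 4 (adjusted p = 0.397 and 0.166), Fgf18 without tumour 2 or 4 (0.0546 and 0.0698), Wnt4 without tumour 4 (0.0655), and Bmp7 and Dkk2 without tumour 3 (0.123 and 0.0939).

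Of 31 tested genes of inflammation, 1 rose and 8 fell, with a median log2 fold change of -0.78. Il33, an alarm cytokine, stood at 0.271, 0.574 and 0.310 per 10000 in members, against 2.65, 1.40 and 2.28 in other fibroblasts (log2 fold change -2.30 ± 0.33 SE, adjusted p = 0.000984). Il11, Cxcl10, Cxcl14, Ccl8, Tnfsf13b and Nfkbia fell as well and kept their call without any single tumour, while Cxcl13 was lost without tumour 4 (adjusted p = 0.267). In members 67.1% of the Cxcl14 transcripts came from 1 well. The adhesion gene Icam1 rose by 0.94. C3 and Cxcl12 stood at 29.8 and 13.7 per 10000 in members and at 20.1 and 7.81 in other fibroblasts and did not pass.

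Transcription factors of position and mesenchyme split. Of 30 tested, 8 rose and 6 fell, with a median log2 fold change of 0.26. Meis2, a homeobox partner of HOX proteins, stood at 3.95, 4.43 and 5.18 per 10000 in members, against 0.632, 1.13 and 0.752 in other fibroblasts (log2 fold change 2.41 ± 0.19 SE, adjusted p = 1.18e-05), and was found in 69 of 74 members and 255 of 548 other fibroblasts. Hoxd13, a HOX gene of the hindgut, rose by 1.78, Etv1 by 2.47, Zfhx3 by 1.23 and Tcf21 by 1.26, and all 5 kept their call without any single tumour. With thinned wells Hoxd13 and Tcf21 were lost (log2 fold changes 1.0 and 0.65, adjusted p = 0.0730 and 0.139), and Tcf21 was lost also against other fibroblasts of like depth (0.55, adjusted p = 0.0781). None of the 6 falls kept its call. Tbx3 and Osr1 were lost without tumour 4 (adjusted p = 0.0717 and 0.0623), Foxp1 without tumour 3 or 4 (0.134 and 0.183), Tshz3 without tumour 2 or 3 (0.0818 and 0.234) and Hoxc10 without tumour 2, 3 or 4 (0.0859, 0.0517 and 0.164). Of the rises, Gli3 was lost without tumour 2 or 4 (0.0818 and 0.381), and Zfhx4 and Tshz2 were lost without tumour 2, 3 or 4, with an adjusted p of up to 0.219 for Zfhx4 and 0.297 for Tshz2.

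Of 15 tested carboxylesterase and xenobiotic enzyme genes, 3 rose and 2 fell, with a median log2 fold change of -0.23. Aldh1a1 and Aldh1a2, both retinaldehyde dehydrogenases, went opposite ways: Aldh1a1 rose by 1.45, and Aldh1a2 had 3 transcripts in members and 298 in other fibroblasts. Fmo1 was lost without tumour 2 or 4 (adjusted p = 0.0829 and 0.225), Ephx1 without tumour 2 or 3 (0.0765 and 0.0696), and Ces1g, a relative of Ces1d found in 1 of 74 members, was lost without tumour 3 or 4 (adjusted p = 0.235 and 0.0578). In the list of ADP-ribosyltransferases, Art4 left aside, only Art3 could be tested, and its fall was lost without tumour 3 or 4 (adjusted p = 0.109 and 0.108).

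Genes induced by tissue dissociation moved with the members. Of 20 tested, 7 rose and 1 fell, with a median log2 fold change of 0.31. The near-identical heat shock genes Hspa1a and Hspa1b, between which reads may have been divided, rose by 1.34 and 1.30 and kept their call; Fos, Jun, Egr1, Ier2 and Btg2 rose by 0.61 to 0.79 and none kept its call. Fos, Egr1, Ier2 and Btg2 were lost without tumour 4 (adjusted p = 0.0913, 0.0785, 0.103 and 0.0933), Ier2 and Btg2 also without tumour 3 (0.0575 and 0.0910), and Jun without tumour 2 (0.0582). The fall of Ier3 was lost without tumour 2 or 4 (0.0740 and 0.0530). Their part in the other results was not tested.

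Markers of other cell types were checked by list. The 11 smooth muscle markers summed to 5.23 to 7.80 per 10000 in members of tumours 2 to 4, against 13.9 to 25.0 in other fibroblasts; of 9 tested, 0 rose and 5 fell, namely Myh11, Des, Acta2, Tagln and Actg2, and Lmod1 was at 0. Of the 581 other fibroblasts 27, and of the 75 members 0, held at least 10 Myh11 transcripts per 10000. Without such wells and Kit-high ones the calls of Myh11 and Actg2 were lost (log2 fold changes -1.13 and -1.68, adjusted p = 0.0983 and 0.0652), and Actg2 was lost also without tumour 2 (adjusted p = 0.0546) and against wells of like depth (0.0534). The 9 pericyte markers summed to 3.24 to 3.91 in members and to 3.96 to 4.27 in other fibroblasts; 1 of 7 tested, Abcc9, rose and 3 fell. Of the 7 glial markers 6 had 0 transcripts in members of these tumours, Sox10, S100b and Gfap among them, and the lists of immune, epithelial and mesothelial cells summed to at most 0.0541 per 10000. The 8 endothelial markers summed to 0.0541, 0.183 and 0.542 per 10000 in members of tumours 2, 3 and 4, against 0.274, 0.371 and 0.321 in other fibroblasts, with Pecam1, Cdh5, Tie1 and Vwf at 0 in members and 0 of 2 tested past the test. The markers of interstitial cells of Cajal, without Kit, summed to 3.91, 3.60 and 11.3 in members, against 1.39, 0.807 and 0.937 in other fibroblasts. Of 3 tested Etv1 and Thbs4 rose and Ano1 fell; Thbs4 alone stood at 2.44, 2.63 and 10.6 in members, carried by few wells as given above. The 8 adventitial fibroblast markers summed to 18.5 to 23.6 in members and 20.9 to 28.0 in other fibroblasts, and of 7 tested 1 rose, Fbln1 (log2 fold change 2.09), and 5 fell, with a list median of -1.39. Of these falls Pi16, Ly6a and Anxa3 kept their call without any single tumour, and Ly6c1 and Sema3c did not.

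The 10 markers of myofibroblastic CAFs summed to 37.5 to 49.8 per 10000 in members, against 49.9 to 68.4 in other fibroblasts, and 2 of 10 rose and 5 fell. The falls, among them Acta2, Postn and Col12a1, kept their call without any single tumour, while the rises of Thbs2 and Col8a1 were lost without tumour 3 (adjusted p = 0.116 and 0.176), Thbs2 also without tumour 4 (0.316). The 10 markers of inflammatory CAFs summed to 48.4 to 69.4 in members and 37.3 to 66.7 in other fibroblasts, and 0 of 10 rose and 2 fell. The 5 red cell genes summed to 2.11 to 4.20 in members and to 9.96 to 21.6 in other fibroblasts. The 8 cell cycle markers summed to 0.108, 0.156 and 4.62 per 10000 in members of tumours 2, 3 and 4; in tumour 4 a single well gave 95.8% of them, and without it the sum was 0.217. None of the 7 tested cell cycle genes passed.

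Against the Kit-high wells the members differed by the genes of pacemaker cells and by matrix genes such as Lum and Fbln2. Only tumours 3 and 4 had 5 Kit-high wells each, so this test rests on 2 tumours and 10 such wells. Of 2837 genes tested by edgeR's quasi-likelihood test, 123 rose in members (4.34%) and 102 fell (3.60%), 7.93% in all; DESeq2 called 67 and 36, and without the tumour block edgeR called 217 and 132. Ano1 had 0 transcripts in members and stood at 24.5 and 46.7 per 10000 in Kit-high wells, at least 758-fold lower in members against a floor of 3 transcripts over the group (adjusted p = 0.000871). The endothelin gene Edn3 (at least 172-fold) and Pcp4l1 (at least 85.9-fold) were at 0 in members too. The transcription factor Hand1 and the phosphodiesterase Pde2a had 1 transcript each in members, against 35 and 28 in Kit-high wells. The ratios were 322 (95% counting interval 54.1 to 13078) and 258 (42.6 to 10534) towards Kit-high wells. Hand1 was uneven there, at 9.01 per 10000 in Kit-high wells of tumour 3 and 0.876 in those of tumour 4. Its counting interval does not cover that difference between tumours.

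Gja1 showed the same order as before. It stood at 0.56 ± 0.13 per 10000 in members and at 18.4 ± 1.29 in Kit-high wells (SD, n = 2 tumours; log2 fold change -4.70, adjusted p = 0.00107). Etv1, a transcription factor of pacemaker cells that had risen against other fibroblasts, fell against Kit-high wells, with 0.53 ± 0.25 per 10000 in members and 7.25 ± 6.68 in Kit-high wells (log2 fold change -3.18, adjusted p = 0.0302). Of the 7 tested nitric oxide and cyclic GMP genes 0 rose and 3 fell, namely Pde5a, Pde9a and Pde2a, with a median log2 fold change of -1.77 against 0.05 over all tested genes. Gucy1b3 did not pass, at 2.31 ± 0.69 per 10000 in members and 2.56 ± 1.69 in Kit-high wells of tumours 2 to 4 (SD, n = 3). Adcyap1r1 also stood at 3.23 ± 0.73 in members and 2.97 ± 2.42 in Kit-high wells over these tumours.

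Higher in members were Ms4a4d, the secreted protein gene Aebp1, Pid1, the BMP antagonist Chrdl2 and the matrix gene Fbln2, all with 0 transcripts in Kit-high wells of tumours 3 and 4 and 278, 246, 190, 193 and 142 in members. With the shallow sums of 10 wells these are bounds only, such as at least 5.14-fold for Fbln2. Lum stood at 34.9 ± 1.02 per 10000 in members and 0.57 ± 0.02 in Kit-high wells (SD, n = 2; log2 fold change 6.23, adjusted p = 0.00181). Of 13 collagen genes 5 rose and 0 fell, and of 17 inflammation genes 10 rose and 0 fell, C3 and Cxcl12 among them. F2r and Lpar1 rose among the 7 receptors tested (log2 fold changes 2.69 and 3.20).

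Telocyte-type wells, the other Pdgfra-rich kind on these plates, differed from members in signalling genes and in secreted factors. The same test was run on tumours 2 to 4. Of 3567 genes tested, 271 rose in members (7.60%) and 289 fell (8.10%), 15.7% in all; DESeq2 called 165 and 189. Adcyap1r1 had 281 transcripts in members and 1 in telocyte-type wells, a ratio of 254 (95% counting interval 45.2 to 10074). Of 15 Gq and calcium genes 7 rose and 1 fell (median log2 fold change 0.44, against -0.02 over all tested genes), with Plcb1 at 4.93 and Cacna1g at 3.04, and Plcb4 at 43 transcripts against 0, at least 13-fold higher; Itpr1, also among the 7, was lost without tumour 3 or 4 (adjusted p = 0.197 and 0.120). Kitl rose by 2.29, Gucy1b3 by 1.66, Kcnma1 by 3.85 and Ramp1 by 2.71, each with an edgeR adjusted p between 0.000217 and 0.00311.

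Syn2 and AW551984 had 97 and 96 transcripts in members and 0 in telocyte-type wells, and Mgp stood at 154 ± 15 per 10000 in members and 1.85 ± 0.96 in telocyte-type wells (SD, n = 3; log2 fold change 6.42, adjusted p = 1.61e-06). Thbs4, with 419 transcripts in members and 0 in telocyte-type wells, was again carried by few wells. Lower in members were Slpi and Slco1a5, at 0 in members, the metalloproteinases Mmp10 and Mmp13 (log2 fold changes -8.09 and -7.38) and 9930013L23Rik (-6.63). Secreted factors fell on balance: of 15 tested 2 rose and 8 fell (median -1.40), with Bmp4 at 4.03 ± 1.5 per 10000 in members and 17.7 ± 1.53 in telocyte-type wells (log2 fold change -2.12, adjusted p = 0.000232) and Wnt5a at 0.59 ± 0.15 and 5.47 ± 1.34 (-3.17), while Sfrp1 rose by 4.08. Gja1 fell by 3.10.

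**Figure D5:**
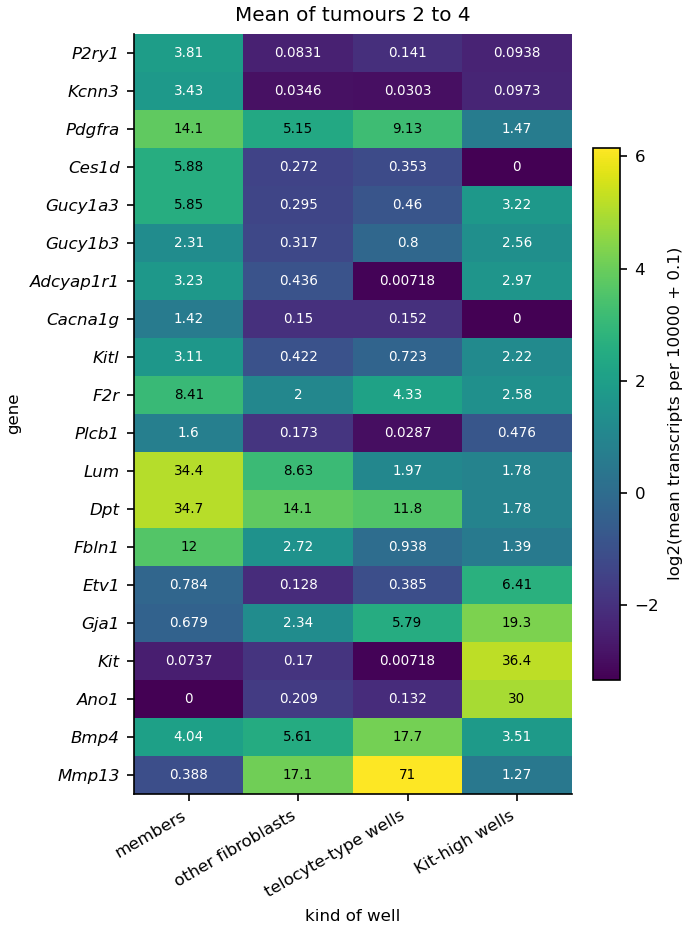
Mean transcripts per 10000 over tumours 2 to 4 for 20 genes (rows) in members, other fibroblasts, telocyte-type wells and Kit-high wells (columns), coloured as log2 of the level plus 0.1, with the level printed in each box. Gucy1b3, Adcyap1r1 and Kitl were at 2.31, 3.23 and 3.11 in members and at 2.56, 2.97 and 2.22 in Kit-high wells, while Ano1 was at 0 in members and at 30.02 in Kit-high wells.

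Among themselves the members varied in which of these genes were caught. Over all 75, Ces1d ranged from 0 to 53.0 per 10000 of a well with a median of 5.86, Gucy1a3 from 0 to 32 with a median of 6.29, and Kitl from 0 to 21.6 with a median of 2.96. At a depth of about 10000 transcripts a level near 1 per 10000 is a single transcript, so an absent gene in a well is not shown to be unexpressed. Gucy1a3 and Adcyap1r1 were found together in 56 of 75 members and 33 of 581 other fibroblasts. All of Gucy1a3, Gucy1b3, Adcyap1r1, Cacna1g and Kitl were found in 27 members and 1 other fibroblast. Gucy1a3 is a gene of the label, and the others were picked because they rose between these same wells. The joint counts were largely set by that choice and are a description only.

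Thinning to 4000 transcripts per well left out 6 members and 121 other fibroblasts that were shallower. Members then held the same place above or below other fibroblasts in the share of wells for 165 of 170 genes. These 170 are the genes of the rule and label and genes called between these same wells. Their order was largely set by that choice, so the count only describes what thinning did. The order turned for Spp1, Pdpn, Beta-s and Wnt5a, all slightly more often found in members before thinning; Pdpn, for example, was found in 47.5 ± 6.2% of thinned members and 65.3 ± 0.45% of thinned other fibroblasts, against 74.8 ± 10.2% and 73.6 ± 3.99% unthinned. Unthinned, Adcyap1r1 was found in 62 of 75 members and in 1 of 57 telocyte-type wells. Thinned, it was found in 53.9 ± 6.59% of members and 16.2 ± 4.33% of other fibroblasts (SD, n = 3 tumours), against 83.2 ± 7.31% and 26.0 ± 4.25% unthinned. Meis2 was found in 77.5 ± 4.21% of thinned members and 26.9 ± 7.37% of thinned other fibroblasts, against 92.9 ± 3.22% and 47.1 ± 7.31% unthinned. Ano1, which the members lacked, was found in 5.43 ± 1.69% of thinned other fibroblasts, and Syn2 in 25.8 ± 5.56% of thinned members and 1.16 ± 0.81% of thinned other fibroblasts.

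Genes whose levels ran most like the sum of P2ry1 and Kcnn3 across the member and other fibroblast wells were ranked by the mean of the Spearman correlations within tumours 2, 3 and 4, over 9940 genes. Syn2 (0.483), Ces1d (0.460), Gucy1a3 (0.447), Prkar2b (0.420), Ptn (0.416), Plekha6 (0.415), Scube2 (0.406), Pid1 (0.399), Mgp (0.395) and Adcyap1r1 (0.393) came first. The wells of a tumour share a plate and differ in depth, and the members were chosen by the same sum, so the ranking is a description. Ptn, the heparin-binding growth factor pleiotrophin, stood at 0.758, 0.782 and 1.20 per 10000 in members and at 0.0208, 0.00926 and 0.0352 in other fibroblasts (log2 fold change 5.30 ± 0.40 SE, adjusted p = 7.71e-06).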

How the data were processed

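Single cells from 4 untreated tumours were sorted into plates and processed by SORT-seq, with CEL-Seq2 libraries. The deposited values are expected counts, that is, each expected count is a UMI number per gene and well that the authors corrected for the 4096 possible barcodes before deposit, as the deposited values show. The submitters' processing notes name BWA and the mm10 genome; for counting and strand, settings are not stated there or in the labels. A well was kept from 1000 transcripts upwards if mitochondrial genes gave no more than 30% of them, and no doublet caller was run. Counts were summed per tumour and kind of well, rounded, and tested where each sum held at least 5 wells. The test was edgeR's quasi-likelihood test (edgeR 4.0.16 in R 4.3.3). It used the filterByExpr filter, TMM factors, the tumour as a block and Benjamini-Hochberg adjustment over all tested genes except those of the rule (and, for telocyte-type wells, those that define them). Both kinds of well of a tumour come from the same plate, which is where the pairing comes from. DESeq2 1.42.0 was an alternative; tables were handled with pandas 2.3.3, numpy 2.4.6 and scipy 1.17.1. The scripts were tested on simulated data.

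Genes named were those of the rule and label, the 15 largest changes each way among genes that passed, moved the same way in every tumour and reached a mean of 1 per 10000 in the higher kind (5 each way against the other kinds), and genes of the lists. Counts of wells and of transcripts bound the precision: intervals cover counting error only. The members and lists were chosen with earlier results of these data known. Other settings, among them thinning to 4000 transcripts, were tried as alternatives. Some genes of the lists are counted but not reported here by name.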

Additional observations from a re-analysis of the deposited data

Results flagged for a closer look

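Tumour 1 stood far from tumours 2 to 4 in 3 of the measures tested per tumour. Its single member held 53796 transcripts, while the median member of the other tumours held 6851 to 10859. The median other fibroblast of tumour 1 had 16.6% mitochondrial transcripts, against 5.08 to 6.35% in the other tumours. Spike-in RNA took 44.0% of its plate. Chance alone marks about 1 in 20 such groups. The number of measures looked at is not given here, so the 3 flags cannot be weighed against that share. With 1 member, tumour 1 entered no test apart from the alternative that let in sums of 1 well, and its part in the lower share of members was not tested.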

How the results depend on the processing

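Against other fibroblasts, 342 genes rose and 343 fell, and leaving out tumour 2, 3 or 4 gave 217 to 276 rises and 231 to 272 falls; tumour 1 is not in that fit, so that leaving it out gives 342 and 343 again. Rises numbered 17 with sums of at least 1 well and 222 with wells thinned to 4000 transcripts. Falls numbered 180 with DESeq2, 644 with all genes that had a count, 20 with sums of at least 1 well, 531 when members needed 3 transcripts, 606 when they needed both Kcnn3 and P2ry1, and 223 with thinned wells. Of 445 calls with thinned wells, 378 were shared with the 685 calls. Thinning and leaving out red-cell-rich wells were chosen after seeing the data. Against Kit-high wells, rises numbered 67 with DESeq2, 298 with all genes, 217 with no tumour block and 55 with sums of at least 1 well, and falls 36 with DESeq2 and 45 with sums of at least 1 well; without tumour 3 or tumour 4 no fit could be made, and leaving out tumour 1 or 2 changes nothing there (123 and 102). Against telocyte-type wells, rises numbered 165 with DESeq2, 445 with all genes and 83 with sums of at least 1 well, falls 189, 438 and 88, and leaving out 1 tumour gave 196 to 370 rises and 217 to 322 falls. The cause of these shifts was not tested. With no tumour block, 334 rose and 289 fell against other fibroblasts. Of the single-gene values recomputed, settings identical to the reported fit left aside, 2546 kept their call and 302 lost it against other fibroblasts. The numbers were 265 and 34 against Kit-high wells, and 798 and 84 against telocyte-type wells, and none changed direction. These genes were picked from fits to the same wells, so the tally was largely set by that choice. A gene not tested in a setting is not counted there. Of all 685 calls against other fibroblasts, DESeq2 shared 406 and the thinned wells 378. Member sums of 184772 to 383564 transcripts bound what low genes can show, and the Kit-high test rests on 10 wells.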
